A study of Ovis aries with 49 samples.

Results

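GRB10 (growth factor receptor-bound protein 10) was followed in 45 fetal sheep RNA libraries through every single-nucleotide polymorphism (SNP) that the deposited lists assign to it. GRB10 is 1 of the 7164 genes that have a SNP in these lists, and its rows were taken by gene symbol alone. They comprise 70 entries, each being 1 SNP in 1 tissue of 1 fetus: 2 in brain, 13 in kidney and 55 in lung. The lists of ram genotypes hold 20 SNPs of GRB10 at which a fetus was heterozygous and the base from its father was known, here called informative, and 18 of these were listed in a tissue.

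The fetuses were crosses of Western white-faced ewes with 4 Dorset rams. From gestation day 30 the ewes were fed at 60% (restricted), 140% (overfed) or 100% (control) of the energy recommended by the National Research Council for twin-bearing ewes. The 15 fetuses, 4 of restricted, 4 of overfed and 7 of control ewes, were collected at day 135, each giving brain, kidney and lung. Messenger RNA was selected by its poly(A) tail and sequenced, and with the blood DNA of the rams this made 49 samples. The number in the sample descriptions places the fetuses in 12 litters, 4 per diet, with 1 control litter of 3 (Con1, Con5 and Con7) and 1 of 2 (Con4 and Con6). The labels instead describe the control fetuses as including 3 twin pairs, which these numbers do not show, and every litter mean and litter fit below rests on the numbers. Fetuses are named here by diet and number (Res1, Over1, Con1). There was no reciprocal cross, so that the parent a base came from and the breed it came from cannot be told apart.

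GRB10 encodes an adaptor protein that binds activated insulin and insulin-like growth factor (IGF) receptors and restrains their signalling. In mice the gene is imprinted: most tissues transcribe the maternal copy, loss of which gives overgrown fetuses, while neurons transcribe the paternal copy from a separate promoter. An imprinted gene is one whose 2 parental copies are used unequally according to the parent they came from.

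The measured quantity was the paternal share, the percentage of reads at a SNP that carry the father's base. All 39974 entries of the fetal lists had at least 20.5 reads and at least 70.02% of them on 1 allele, so a single SNP can show only a share below 30% or above 70%. An informative SNP that is not listed was either more balanced than this or had too few reads, and these cannot be told apart from the deposited values. The size of a share is therefore bounded by the lists, whereas its side, maternal or paternal, is not. The libraries held 272 to 1420 entries in brain, 172 to 1276 in kidney and 709 to 1993 in lung, and the reads at these entries summed to 10477 to 82301, 6530.5 to 71952.5 and 31581 to 194732.5. In no pair of libraries were more than 3.448% of shared SNPs identical in both counts. Of the tissue markers searched, 2 of 8 brain markers were listed in brain, with up to 531 reads at a SNP, 6 of 8 kidney markers in kidney, with up to 834, and 1 of 7 lung markers in lung, the alveolar phosphate transporter SLC34A2, with up to 495.5. Of 4 endothelial markers 3 had an entry in brain, in kidney and in lung.

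All 70 GRB10 entries lay on the maternal side. Among the other genes, 58.6% of the 10401 brain entries, 56.7% of the 12338 kidney entries and 54.8% of the 17165 lung entries were on that side. Of the 56 genes with 50 or more entries over the 3 tissues, 10, GRB10 included, had every entry on the maternal side and 9 had every entry on the paternal side.

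The 18 listed SNPs lie on chromosome 4 between positions 5234736 and 5265632, a span of 30.9 kb in the coordinates of the lists, whose genome build the sources used here do not state. The lists assign the 20 informative SNPs to 7 annotation features without saying whether a feature is an exon, an intron or an untranslated region. One feature, from 5263003 to 5265632, holds 14 of the SNPs within 2.63 kb, and it supplied 44 of the 55 lung entries and 12 of the 13 kidney entries but 0 of the 2 brain entries. In lung the mean share was 19.9% ± 6.21 over the 44 entries of this feature and 18.5% ± 6.08 over the 11 entries of the other features (SD over entries, which share fetuses and reads). The father's base was the reference base at 15 of the SNPs and the alternative base at 5, and no SNP was seen both ways round.

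**Figure D1:**
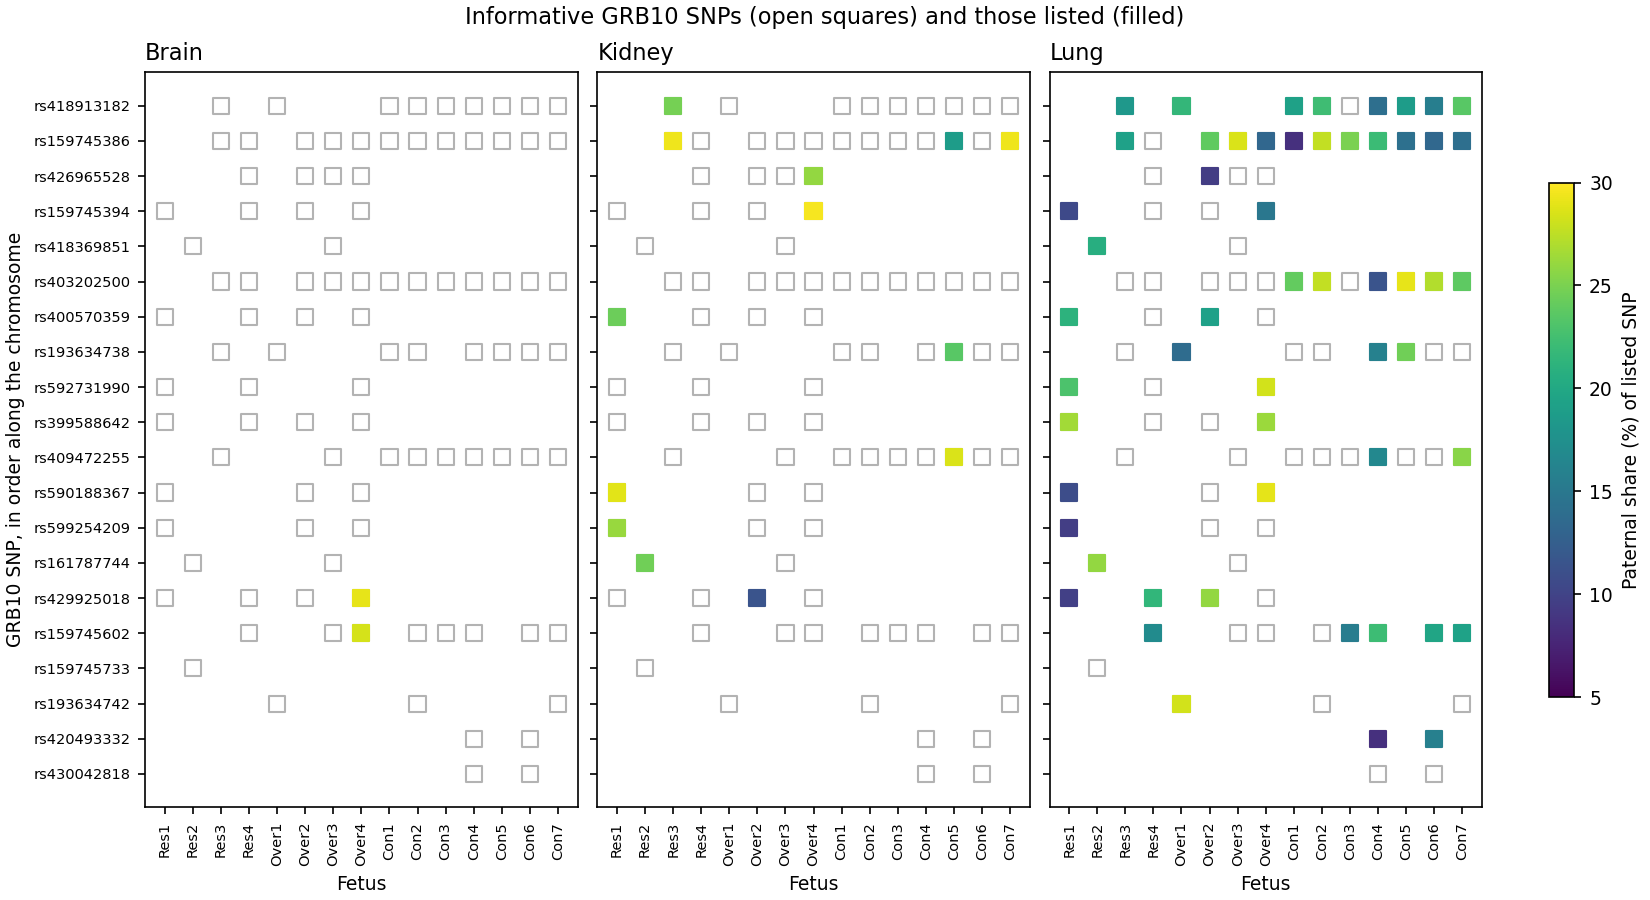
Each row is 1 of the 20 informative GRB10 SNPs in their order along chromosome 4 (lowest position at the bottom), each column 1 fetus, and the panels are brain, kidney and lung. Open squares mark fetuses in which the SNP was informative and filled squares those in which it was listed, coloured by the paternal share in percent. Filled squares number 2 in brain, 13 in kidney and 55 in lung.

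In lung GRB10 was listed in all 15 fetuses. Informative SNPs numbered 3 to 11 per fetus and made 99 pairs of a fetus and a SNP, of which 55 were listed in lung, or 55.56% (95% Clopper-Pearson interval 45.22 to 65.55). For all other genes together the figure was 3.636%, 17165 of 472076 pairs. In kidney 13 of the 99 GRB10 pairs were listed, 13.13% (7.181 to 21.41), against 2.614% for the other genes. In brain 2 of 99 were listed, 2.02% (0.2456 to 7.108), against 2.203% for the other genes. These intervals cover counting error only, and pairs from 1 fetus are not independent.

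Among the 2869 genes with 50 or more informative pairs, GRB10 ranked 6 in lung, 98 in kidney and 740 in brain by the percentage listed, where the median gene had 1.449%, 0.8264% and 0.4219%. The 5 genes above it in lung, named after their values were seen, were LOC101105348 (79.84%), TUBB6 (63.38%), PON3 (62.89%), LOC101107401 (60.44%) and LOC101112480 (59.62%). Of these 5, LOC101112480 had all of its 31 lung entries on the maternal side, while TUBB6, a tubulin, and PON3, a lactone-hydrolysing enzyme, had 0 there. The percentage listed depends on read depth as well as on imbalance, and their parts were not tested.

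**Figure D2:**
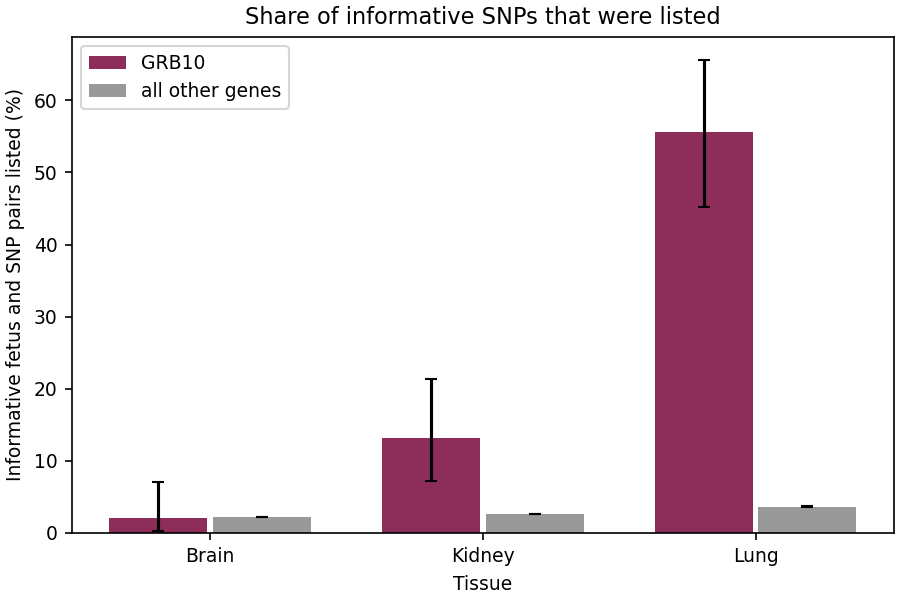
The bars give the percentage of informative pairs of a fetus and a SNP that were listed, for GRB10 and for all other genes, in brain, kidney and lung; the lines are 95% Clopper-Pearson intervals. GRB10 stands at 55.56% in lung, against 3.636% for the other genes, and in brain its 2.02% lies beside 2.203%.

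Reads summed over the listed SNPs of a fetus gave a lung paternal share of 20.6% ± 3.64 (SD, n = 15 fetuses). Shares were 14.5%, 24.4%, 18.75% and 20.0% in Res1 to Res4, 20.9%, 21.1%, 28.6% and 21.9% in Over1 to Over4, and in the 7 control fetuses the lowest was 16.4%, the median 19.6% and the highest 25.9%. The 3 diets overlapped. With every GRB10 entry on the maternal side, and so below 30% by the limit of the lists, no summed share could reach 30%. On the logit scale, the natural log of the ratio of paternal to maternal reads after adding 0.5 to both, the lung mean was -1.34 (SE 0.0616), with an adjusted p of 9.62e-11 against equal reads (limma, Benjamini-Hochberg over 1476 genes). In the same test 39.2% of the genes were called on the maternal side and 60.9% on either side, and listed SNPs are unequal by construction. The exact two-sided sign-flip permutation test over the 15 fetuses gave p = 6.104e-05, the smallest it allows.

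In kidney 7 of the 15 fetuses had a listed GRB10 SNP, and their share averaged 24.2% ± 5.98 (SD, n = 7). It was 26.0%, 24.6% and 27.01% in Res1, Res2 and Res3, 11.5% and 27.8% in Over2 and Over4, and 22.7% and 29.4% in Con5 and Con7. The other kidneys lay within 22.7% to 29.4%, just under the 30% limit of the lists, and Over2 lay below them, with 26 reads at 1 SNP. The kidney mean logit was -1.14 (adjusted p = 0.000209, limma over 1047 genes), where 44% of the genes were called on the maternal side and 66% on either side. Set against the median of all gene and fetus values in kidney (27.42%) in place of equal reads, an alternative added after seeing the data, GRB10 was no longer called (adjusted p = 0.340, limma). In lung it was still called against the corresponding median of 28.16% (adjusted p = 7.62e-05, limma).

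In brain only Over4 had a listed GRB10 SNP, so no test was made. Its rs159745602 had 9.5 paternal and 24 maternal reads, a share of 28.4%, and its rs429925018 had 11.5 paternal and 28 maternal reads, a share of 29.1%. Both lay on the maternal side and just inside the limit of the lists. No entry on the paternal side, the side used in mouse neurons, was listed in brain, and a balanced share in the remaining brain libraries cannot be told apart from low reads.

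**Figure D3:**
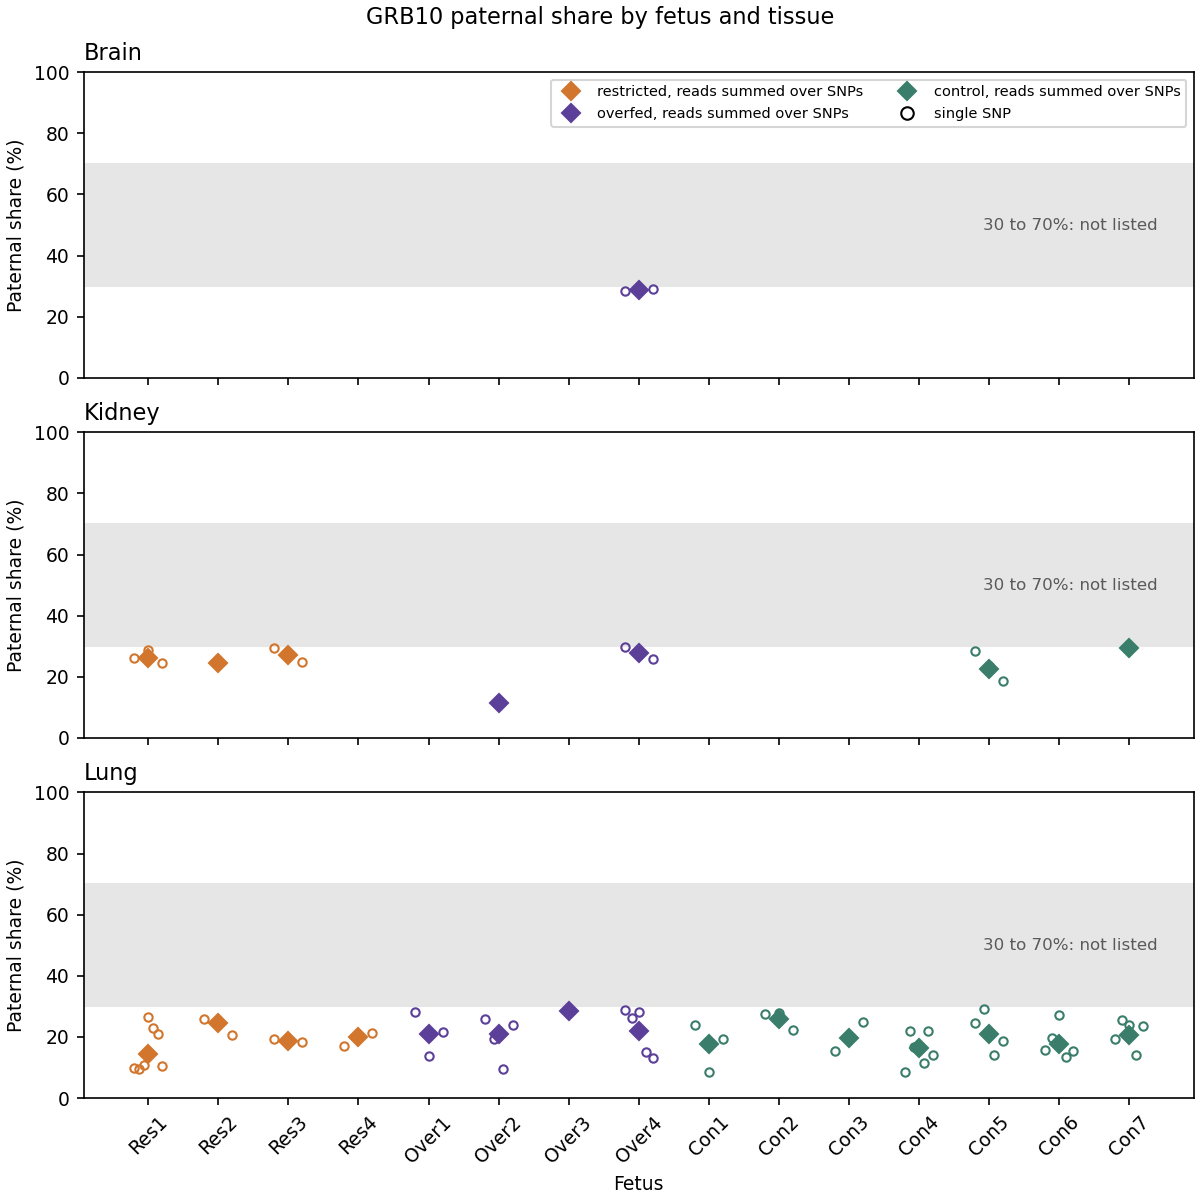
The y axis is the GRB10 paternal share in percent and the x axis the fetus, in panels for brain, kidney and lung. Open circles are single SNPs and diamonds the share from reads summed over the SNPs of a fetus; the grey band from 30% to 70% is the range the lists do not hold. Each lung has a diamond, against 7 kidneys and 1 brain, and all lie below 30%, which the lists fix for maternal-side entries.

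Single SNPs of 1 lung differed from each other. The 55 lung entries had shares of 8.51% to 29.0% with a mean of 19.7% ± 6.16 (SD over entries), 14 of them at 25% or above and 5 below 10%. In the 14 lungs with 2 or more listed SNPs, the gap between the highest and the lowest SNP was 0.897 to 17.04 percentage points, with a median of 13.7. The median SNP had 32 reads, and at that depth intervals are wide: rs399588642 in Res1, at 26.6% of 32 reads, had a 95% interval of 13.3% to 45.5%. Over the 55 lung entries, Spearman's rho between reads and share was 0.09, a description only.

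A pair of SNPs at the upper end of the large feature was listed in all but 1 each of the lungs that could show them. The SNP rs420493332 (position 5234736) was listed in 2 of its 2 informative lungs, Con4 (8.51%) and Con6 (15.8%), which are littermates. The SNP rs159745386 (position 5265285) was listed in 11 of its 12 informative lungs, Res4 being the exception, with shares of 8.51% at the lowest, 19.2% at the median and 28.6% at the highest. The SNP rs418913182 (position 5265632) was listed in 8 of 9, all but Con3, and ran from 14.04% to 23.5% with a median of 19.1%. With rs159745386 and rs418913182 alone, an alternative added after seeing the data, the lung mean logit was -1.39 over 12 fetuses (adjusted p = 4.42e-08, limma).

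The remaining SNPs with 3 or more lung entries were listed less completely. The SNP rs403202500 (position 5264711) was listed in 6 of 12 lungs, at 11.5% to 29.0%. These were all of control fetuses, from 3 litters, and it was unlisted in Res3, Res4, Over2, Over3, Over4 and Con3; a difference in listing between diets was not tested. The SNP rs159745602 (position 5250277) was listed in 5 of 8, at 15.5% to 22.1%. The SNP rs193634738 (position 5264030) was listed in 3 of 8, at 13.7% to 24.6%, and rs429925018 (position 5262275) in 3 of 4, at 9.78% to 25.9%. In contrast rs409472255 (position 5263827) was listed in 2 of 9 lungs. The 2 SNPs listed in no tissue were rs430042818 (position 5085732), informative in 2 fetuses, and rs159745733, informative in 1.

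Tested singly, 6 of 6 GRB10 SNPs with 3 or more lung values were called on the maternal side, with mean logits of -1.14 (rs403202500, adjusted p = 0.000201) to -1.49 (rs429925018, adjusted p = 0.00525; limma over 1319 SNPs). In this test 55.3% of SNPs were called on the maternal side and 92.9% on either side. In kidney the 1 SNP tested, rs159745386, had shares of 29.4%, 18.75% and 29.4% in Res3, Con5 and Con7 and was called (logit -1.04, adjusted p = 0.00470, limma), where 58.3% of SNPs were called on the maternal side and 92.6% on either side. Con5 and Con7 are littermates, so these values come from 2 litters: with the litter as the unit the SNP had too few values for the test, and against the median SNP it was not called. Against the median SNP 3 of the 6 lung SNPs were called.

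The base itself could be compared within lungs, across different SNPs. Entries whose father carried the alternative base averaged 20.0% ± 5.84 (SD over 28 entries at 4 SNPs), against 19.3% ± 6.56 where he carried the reference base (27 entries at 14 SNPs). In the 7 fetuses with both kinds, the mean logit over SNPs was higher at the alternative-base SNPs in 4 of 7 and differed by -0.06 ± 0.47 (SD; exact two-sided sign-flip permutation p = 0.703). With reads summed over SNPs the alternative-base share was higher in 2 of 7, Con3 and Over2, and the logit differed by -0.10 (exact two-sided sign-flip permutation p = 0.594), so the count by fetus depends on how SNPs are combined. Both kinds lay on the maternal side in all 7, as did every GRB10 entry in lung. The lists held both kinds below a share of 30%, which leaves little room for a difference between bases. By father, the lung share was 17.7% for ram 1 (n = 2 fetuses), 24.4% for ram 2 (n = 1), 19.8% ± 1.57 for ram 3 (n = 5) and 21.4% ± 4.39 for ram 4 (n = 7).

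Kidney and lung were compared at the same SNPs of the same fetus. Of the 13 kidney entries 11 were also listed in lung, and the kidney share was higher in 8 of the 11 while the kidney reads were higher in 6. Summed per fetus over these shared SNPs, the share in kidney against lung was 26.0% against 13.5% in Res1, 24.6% against 25.9% in Res2 and 27.01% against 18.75% in Res3. It was 11.5% against 25.9% in Over2, 29.6% against 14.9% in Over4, 20.7% against 18.7% in Con5 and 29.4% against 14.1% in Con7. Kidney was thus higher in 5 of 7 fetuses and lower in Res2 and Over2. The SNPs rs599254209 and rs590188367 of Res1, both among the 11 entries, lie 1 base apart. A read that covers both counts at each, also in the sums.

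The mean kidney minus lung difference was 5.31 ± 10.7 percentage points (SD, n = 7; exact two-sided sign-flip permutation test on the logit, p = 0.266, where the smallest possible is 0.01562). In the fit over all 45 libraries the kidney over lung difference was 0.20 on the logit scale (SE 0.133, adjusted p = 0.837, limma over 738 genes), a test that called 0.407% of the genes and, with fetus as a block, 0.45%. Without the kidney of Over2, an alternative added after seeing the data, it was 0.33 (adjusted p = 0.316, limma). Among listed SNPs the difference thus stayed within the spread between fetuses. A simulation without the limits of the lists gave genes 35% in kidney and 20% in lung. The fit over all libraries recovered 47% of them. More balanced kidney SNPs could not enter the comparison, as the lists leave them out. Of 99 informative kidney pairs 86 were unlisted, and 7 of the 13 listed entries had shares of 25% or more, near the limit of the lists. Whether kidney was more balanced at the unlisted SNPs cannot be decided from these values. Brain, with 1 fetus, was compared with neither tissue by a test.

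**Figure D4:**
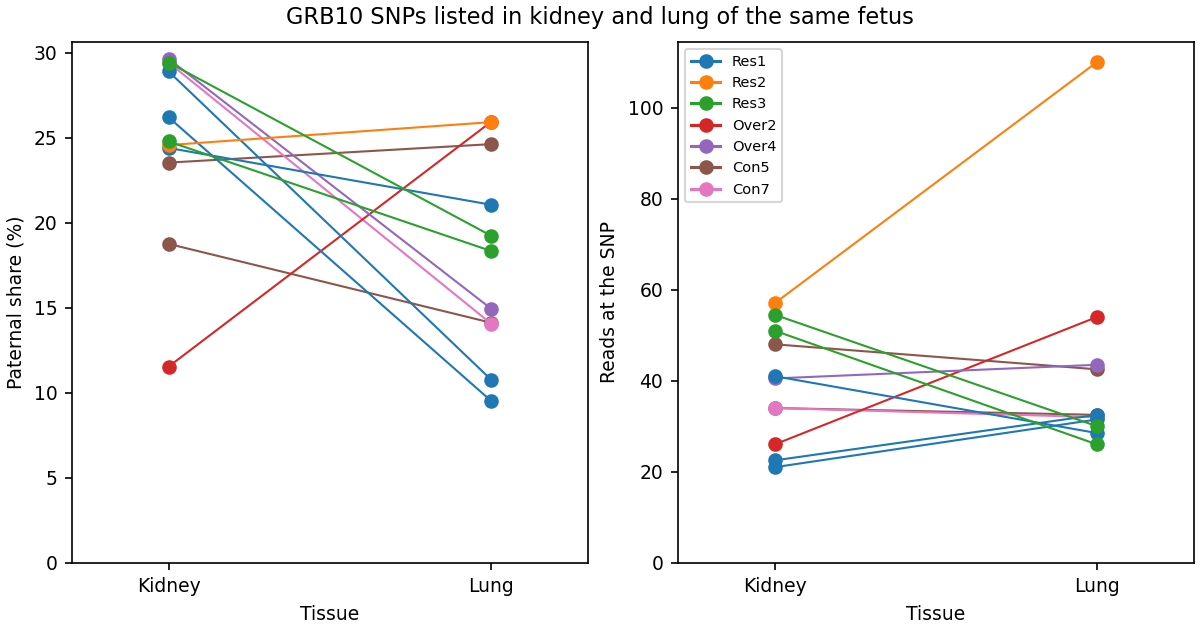
Each line joins kidney and lung at 1 GRB10 SNP of 1 fetus, for the 11 SNP entries listed in both; the left panel gives the paternal share in percent, the right panel the reads, and colours mark the 7 fetuses. Most lines fall towards lung in the left panel, 8 of 11, and the single line of Over2 runs steeply the other way.

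The study's diet question was put to GRB10 in lung, where all fetuses had values. Diet was not independent of ram or SNP. All control fetuses were by ram 3 or ram 4, whereas Res1 and Over1 were by ram 1 and Res2 by ram 2. Res1 and Res2 had no informative GRB10 SNP in common with any control fetus. The diet means therefore compare partly different rams and SNPs, and the part of the SNPs was not tested. The paternal share was 19.4% ± 4.08 in restricted (SD, n = 4), 23.1% ± 3.66 in overfed (n = 4) and 20.6% ± 3.76 in control litters (n = 4, littermates averaged). On the logit scale restricted over control was -0.08 (SE 0.179, adjusted p = 0.969), overfed over control 0.15 (SE 0.182, adjusted p = 0.995) and overfed over restricted 0.22 (SE 0.185, adjusted p = 0.848; limma over 347 to 476 genes). No contrast passed the test, and over all genes tested these contrasts called 0.258%, 0% and 0%. A simulation without the limits of the lists gave genes 40% in overfed and 20% in control lungs. The overfed over control fit recovered 61.5% of them. The restricted over control value had the opposite sign without Res1 (0.04) and without Con2 (0.02), so its direction rests on single lungs. Without Over3, whose value came from 1 SNP with 35 reads, overfed over control was 0.04 and overfed over restricted 0.12. Overfed over restricted was 0.11 without Res1, overfed over control 0.25 without Con2, and restricted over control -0.18 without Res2.

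The reads per listed GRB10 SNP are all that the lists hold on expression level, and only at SNPs that passed their limits. In lung they averaged 46.3 ± 21.1 in restricted (n = 4), 46.8 ± 18.2 in overfed (n = 4) and 30.2 ± 4.72 in control litters (SD, n = 4). Res2 (76.75 reads) and Over1 (73.5 reads) stood highest, and the other restricted and overfed lungs, at 28 to 43.3 reads, overlapped the control lungs, at 25.5 to 45.2. Res2 and Over1 each had a ram that sired no control fetus. After scaling the libraries, the log2 difference in reads was 0.58 for restricted over control (SE 0.183, adjusted p = 0.968), 0.27 for overfed over control (SE 0.183, adjusted p = 0.977) and -0.31 for overfed over restricted (SE 0.187, adjusted p = 0.885; limma), and these contrasts called 0% of genes. With ram as a covariate these differences were 0.66, 0.37 and -0.29. Without Over3 overfed over control was 0.14, and without Res4 overfed over restricted was -0.20. The overfed over restricted value turned to 0.04 without library scaling, and the overfed over control value to -0.25 with at least 50 reads required per SNP. In a tissue sample, fewer cells that express GRB10 and less GRB10 RNA per cell cannot be told apart.

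**Figure D5:**
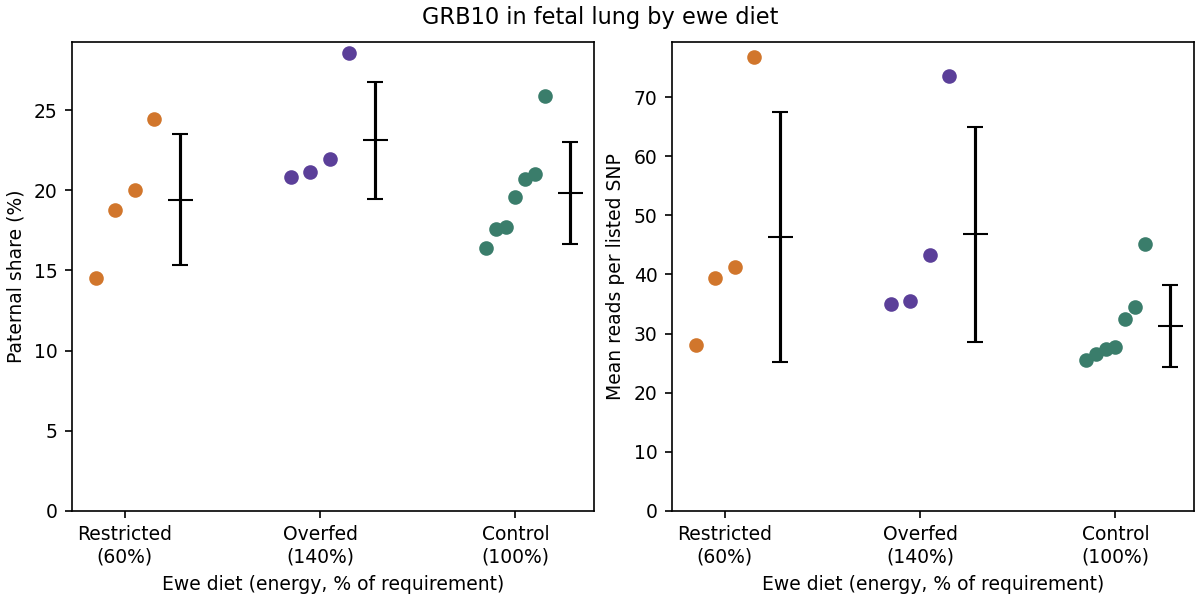
Each point is the lung of 1 fetus from restricted, overfed or control ewes; the left panel gives the GRB10 paternal share in percent and the right panel the mean reads per listed SNP, with the mean and SD over fetuses drawn beside the points. The diets overlap in both panels, and the overfed lung at 28.6% is Over3.

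The number of SNPs that passed into the lung lists was, by diet, 13 of 24 informative pairs in restricted (54.17%, 95% Clopper-Pearson interval 32.82 to 74.45), 13 of 30 in overfed (43.33%, 25.46 to 62.57) and 29 of 45 in control fetuses (64.44%, 48.78 to 78.13). The intervals overlapped. In kidney 6 of 24, 3 of 30 and 4 of 45 pairs were listed, in 3 of 4 restricted, 2 of 4 overfed and 2 of 7 control fetuses. In brain 0 of 24, 2 of 30 and 0 of 45 were listed, and for 0 of 45 the upper 95% Clopper-Pearson bound is 7.871%.

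Kidney values were few for the diet question. The share averaged 25.9% ± 1.23 in restricted (SD, n = 3), 11.5% and 27.8% were the overfed values, and the control values, 22.7% and 29.4%, came from 1 litter, so that no fit against control was made with the litter as the unit. Overfed over restricted was -0.38 on the logit scale for the share (SE 0.338, adjusted p = 0.907) and -0.36 on the log2 scale for reads per SNP (SE 0.404, adjusted p = 0.985; limma over 180 genes, 0% called). Without Over2 these were 0.10 and 0.09, and without Over4 -0.87 and -0.80, with a lone overfed kidney assumed to vary like the others. The difference in reads was -0.64 without Res1 and -0.12 without Res2. The overfed over restricted effect on the share differed between kidney and lung by -0.61 (SE 0.339, adjusted p = 0.956, limma, 0% of genes called), and by -0.13 without the kidney of Over2.

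The genes around GRB10 on chromosome 4 gave few entries. Of 7 neighbours, 4 had an informative SNP and 1 was listed, DDC, the decarboxylase that makes dopamine and serotonin. DDC was informative in 14 fetuses but listed only in kidney, in Con3 (13.1%) and Con5 (28.6%), both on the maternal side. With 2 fetuses it was not tested.

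Of 55 genes listed for insulin and IGF signalling, the pathway that GRB10 restrains, 50 were informative and 29 were listed in a tissue. The 55 include KIT, KDR and EGFR, which are not insulin or IGF receptors, and KDR is among the lung genes called. Of the members tested, 3 of 5 brain genes, 6 of 9 kidney genes and 8 of 11 lung genes were called on the maternal side, against a background of 44.6%, 44% and 39.2% of all genes tested (65.5%, 66% and 60.9% on either side), and 0 were called on the paternal side in any tissue, where the background was 20.9%, 22% and 21.7%. The median logit of the tested members was -0.86, -1.41 and -1.24, against -0.58, -0.55 and -0.42 over all genes tested. These members passed the lists' limits, which left out balanced SNPs, so the counts describe what was listed.

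Among the receptors, IGF2R, which clears IGF2 from the cell surface, had a paternal share of 12.2% ± 4.43 in kidney and 6.37% ± 2.58 in lung (SD, n = 4 fetuses each). IGF1R, the signalling receptor for the IGFs, had 17.9% ± 4.81 in kidney (n = 11, all at 1 SNP). It had 26.7% ± 19.1 in lung (n = 12, at 3 SNPs), where single lungs ran from 9.26% to 76.5%. The endothelial receptor KDR had 18.2% ± 4.51 in lung (n = 5). In kidney KDR was listed in 1 fetus, on the paternal side at 70.7%, and was not tested. IGF2R and IGF1R were called on the maternal side in kidney and lung, and KDR in lung.

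Among adaptors, SHC1, which links receptors to the Ras pathway, had 16.4% ± 6.33 in kidney (n = 5) and 12.2% ± 2.57 in lung (n = 6), and SH2B1, a receptor-binding adaptor, 12.7% ± 5.23 in brain (n = 5) and 24.7% ± 1.10 in kidney (n = 4). GIGYF2, a GRB10-interacting protein, had 17.3% ± 5.12 in kidney (n = 3) and 15.2% ± 9.40 in lung (n = 4). The ubiquitin ligase NEDD4L had 29.2% ± 0.934 in brain (n = 3). All of these were called on the maternal side in those tissues. GRB2, the adaptor of the Ras pathway, was not called in brain, kidney or lung (66.6% ± 37.95, 58.2% ± 35.9 and 63.6% ± 33.5), with fetuses on both sides.

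Downstream of the receptors, the phosphatase PTPN1 (32.5% ± 21.02, n = 12) and TSC2, a brake on mTOR signalling (14.2% ± 3.64, n = 4), were called on the maternal side in lung. Single lungs lay on both sides for PTPN1, from 12.8% to 83.7%, and ran from 9.26% to 17.8% for TSC2. In kidney neither was called, PTPN1 with 38.9% ± 22.3 (n = 5, adjusted p = 0.346, limma) and TSC2 with 35.1% ± 23.96 (n = 4, adjusted p = 0.265, limma), each with fetuses on both sides. At their listed SNPs IGF1R, SHC1, SH2B1, GIGYF2 and KDR had fathers with the reference base alone, whereas at those of IGF2R both bases were seen. The calls of SHC1, SH2B1 and GIGYF2, and those of KDR and TSC2 in lung, each rest on 1 SNP in the tissue.

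By the mean absolute difference in paternal share over shared libraries, the genes most like GRB10 among 157 compared were LOC101109495 (3.34 percentage points over 20 libraries), ESYT1, a membrane-tethering protein (4.31 over 21), COPA, a coat protein of Golgi vesicles (4.45 over 15), CLK1, a splicing kinase (4.49 over 23), and SNF8, a sorting subunit (4.58 over 15). At the listed SNPs of 4 of these 5 the father carried the reference base alone, and ESYT1 had both. In brain CLK1 was listed in 15 fetuses, SNF8 in 13, COPA in 11 and LOC101109495 in 9, whereas ESYT1, like GRB10, was listed in 1. CLK1 and SNF8 had 1 listed SNP each.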

How the data were processed

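Reads at SNPs in 45 fetal libraries were used. They are estimated counts: per the labels' series text, the authors mapped each library to 2 genomes, reference and alternative, and took the mean coverage. In 65.3% of deposited entries a value is not whole; values were not rounded, since no count model was used. The ram lists hold other values, SNP positions and genotypes, as deposited. The tools named in the submitters' processing notes are HISAT2 2.0.5, SAMtools, Picard and Trimmomatic 0.33; build and caller are not given in the sources used here. The limits on reads and on the share were read from the values. The labels name no sequencing run per sample, so runs were not compared.

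Reads at SNPs with at least 10 reads were summed per gene and fetus. The empirical logit (0.5 read added) was tested in limma 3.58.1 (R 4.3.3) over all genes, two-sided, with Benjamini-Hochberg adjustment at 0.05: parental bias in genes with 3 or more fetuses, diets over litters in genes with 2 or more litters per diet, reads per SNP as log2 of the scaled mean. Permutation tests and intervals used SciPy 1.17.1. Single SNPs with 3 or more fetuses were named with values. GRB10, its lists and its tests were chosen with earlier results of these data known. Tissues pair by fetus, being from the same animal (median correlation of deviations 0.312 over 45 pairs). Diet numbers do not pair fetuses. The fits were tested on simulated data, to which the limits of the lists were not applied. They recovered 100% of the genes given a paternal share of 20% in brain, kidney and lung. For kidney over lung they recovered 47% of the genes given 35% and 20%. For overfed over control in lung they recovered 61.5% of the genes given 40% and 20%. Differences of that size could be missed even without the limits. A single listed SNP cannot show 35% or 40%, so these rates do not give the power within the lists. No sequences are shown. Alternatives covered read minimum, SNP choice, reads added, unit, ram, replicate block, scaling and left-out replicates. The values of 1 called gene of the insulin and IGF list are not reported here. Of the neighbours, SPATA48 was not found under that symbol. No blood or muscle marker was listed, but only 2 of 4 blood markers and 0 of 3 muscle markers were informative, so muscle could not be assessed. Brain markers were listed in kidney (2 of 8, up to 28.5 reads) and lung (2 of 8, up to 71), kidney markers in brain (1 of 8, up to 42) and lung (3 of 8, up to 79).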

Additional observations from a re-analysis of the deposited data

Results flagged for a closer look

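Of 10 groups of 4 to 10 values examined, 3 held a value far from the others; chance marks about 1 group in 20, and these groups share fetuses.

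In kidney, Over2 had a GRB10 paternal share of 11.5385%, the lowest of 7 fetuses, from 3 paternal and 23 maternal reads at rs429925018, the sole listed SNP. Its 95% Clopper-Pearson interval is 2.446% to 30.15%, and the same SNP stood at 25.9% in the lung of that fetus.

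In lung, Over3 had a share of 28.5714%, the highest of 4 overfed fetuses, from 10 paternal and 25 maternal reads at 1 of its 7 informative SNPs. The other overfed lungs stood at 20.9% to 21.9%.

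At rs403202500 in lung, Con4 had 11.5385%, the lowest of 6 fetuses, from 3 paternal and 23 maternal reads. The other 5 lungs stood at 23.8% to 29.0%, and at its other 6 listed SNPs Con4 ran from 8.51% to 22.1%.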

How the results depend on the processing

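Every GRB10 entry lay on the maternal side, so the alternatives for bias could not turn its direction when set against equal reads. It stayed past the threshold in 9 of 10 alternatives in kidney and 12 of 12 in lung. Most of these set GRB10 against equal reads, or against the median of gene means (36.68% in kidney, 39.63% in lung). Both references lie above any share that a maternal-side entry can have in the lists, so these passes say little about robustness. Only the median of gene and fetus values, 27.42% in kidney and 28.16% in lung, was within reach, and lung was still called against it. Against the median of gene and fetus values, added after seeing the data, kidney bias was -0.17 (adjusted p = 0.340, limma); the cause was not tested. Against the median SNP, single-SNP calls were 0 of 1 in kidney and 3 of 6 in lung. At 50 reads 1 of 1 SNP tested in lung was called; in kidney the count was 0 at 50 reads and with the litter as the unit, where 0 SNPs could be tested. In lung, log2 reads turned to -0.25 for overfed over control at 50 reads and to 0.0434 for overfed over restricted without scaling; the cause was not tested. None of the 176 alternatives of diet and tissue differences passed the threshold (lowest adjusted p 0.316, limma).

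Leaving out each replicate gave, for the lung share, -0.18 to 0.0372 for restricted over control (0.0248 without Con2, 0.0372 without Res1), 0.0448 to 0.25 for overfed over control and 0.11 to 0.32 for overfed over restricted. Lung log2 reads ran 0.46 to 0.69, 0.14 to 0.35 and -0.43 to -0.20. Kidney overfed over restricted ran -0.87 to 0.0988 for the share and -0.80 to 0.0877 for reads, positive without Over2.

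With fetus as a replicate block the kidney over lung difference was 0.22 (adjusted p = 0.784, limma), and with litter as the block the kidney minus lung difference of the overfed over restricted effect was -0.54. With the replicate number as a block, lung share differences were -0.03 for restricted over control, 0.19 for overfed over control and 0.22 for overfed over restricted, and log2 reads 0.61, 0.30 and -0.31. The numbers mark no shared animal (median correlation 0.022 for the same number and -0.005 for other numbers). No block changed a call. Kidney bias at 50 reads and in control fetuses alone, brain, and kidney diets against control, with ram or with the number block gave no value, since too few fetuses were listed. Of the 55 lung entries 8 had fewer than 25 reads, and 7 of 13 kidney entries had shares of 25% or more, near the 30% limit of the lists.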
